A study of Mus musculus with 3 samples.

Results

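The 6 genes described here, Wt1, Lmx1b, Tcf21, Foxc1, Foxc2 and Foxd1, encode the transcription factors that are best known for building and keeping the podocyte, the cell that wraps the glomerular capillary and holds the filtration slit. They were taken by name, as 6 of the 22535 genes counted in 3 single-cell libraries from mouse kidney, and all 6 were counted in every library. Each library is 1 suspension of kidney cortex cells from WT1CreERT2; Rosa26-tdTfl/+ mice, in which a tamoxifen-activated Cre recombinase sits in the Wt1 locus and switches on the red protein tdTomato (tdT) in cells that use the locus. Sham was a mixture of cells from sham-operated kidney enriched for tdT+ cells. IRI24h-TDN was a like mixture, prepared 24 h after both kidneys had undergone ischemia and reperfusion (IRI, an acute injury). Cells bearing tdT, and no others by label, made up IRI24h-TD, from the same time after IRI. All 3 groups carried the modified Wt1 locus, so Wt1 was read everywhere from mice with a CreERT2 insertion there. Neither Cre nor tdTomato was among the counted gene names, and the study describes adult mice, with several kidneys behind each group but no values for single animals.

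Wt1 is a zinc finger factor that turns on much of the podocyte programme and is also used by some parietal epithelial cells (PECs), the flat cells that line Bowman's capsule. Lmx1b is a LIM homeodomain factor, Tcf21 a basic helix-loop-helix factor, and Foxc1, Foxc2 and Foxd1 are forkhead factors, of which Foxc1 and Foxc2 are close paralogs and Foxd1 also marks the stromal progenitors of the embryonic kidney. Loss of any of several of these genes harms the filter in mice, and the factors bind many of the same podocyte genes.

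Of 30008 barcodes, 26760 had at least 200 genes and at most 50% mitochondrial UMIs (unique molecular identifiers, 1 per captured RNA molecule), that is 8047, 9024 and 9689 for Sham, IRI24h-TDN and IRI24h-TD, and their median depth was 7746, 9151 and 9529 UMIs. The libraries shared 102 to 114 barcodes pairwise. Cells were clustered without the 6 factors and classes were named from marker genes, giving 17458 podocyte-like cells (4246, 5015 and 8197 in the order above), 1175 PEC-like cells (621, 265 and 289), 1243 proximal tubule epithelial (PTEC)-like cells (1025, 138 and 80) and 8 further named classes. The podocyte-like clusters each had all 12 podocyte markers, among them Nphs1, Podxl and Synpo, and the PEC-like cluster had 10 of 11 PEC markers. Clusters 9, 10, 18 and 19 stayed unnamed, of which cluster 10 (954 cells) had podocyte and PEC markers together and cluster 9 (971 cells) had podocyte markers at a median depth of 1417 UMIs. The sort sets how many cells of each class a library holds, so class sizes are not compared. Levels are given as CPM, the UMIs of a gene in the summed cells of a class scaled to a total of 1000000 UMIs. With 1 library in each group there is no test, no p-value and no spread between animals, and the 95% intervals in parentheses are exact Poisson or binomial intervals that cover counting error only.

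Promoter sequences show how differently these podocyte genes begin. The RefSeq table used here held the start of 4 of the 6 factors (build GRCm38.p6), and the 250 bases before each start are printed 5′ to 3′ on the gene's own strand, with CCAAT boxes (CCAAT or its complement ATTGG) and GC boxes (GGGGCGGGG or its complement CCCCGCCCC) in capitals. They are Lmx1b (chr2:33641099-33641348, minus strand), Tcf21 (chr10:22820144-22820393, minus), Foxc1 (chr13:31806396-31806645, plus) and Foxd1 (chr13:98353995-98354244, plus).
Lmx1b: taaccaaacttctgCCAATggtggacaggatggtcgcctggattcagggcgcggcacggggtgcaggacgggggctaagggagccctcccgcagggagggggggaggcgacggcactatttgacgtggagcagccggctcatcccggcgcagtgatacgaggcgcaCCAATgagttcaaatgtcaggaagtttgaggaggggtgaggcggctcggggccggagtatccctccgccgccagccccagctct
Tcf21: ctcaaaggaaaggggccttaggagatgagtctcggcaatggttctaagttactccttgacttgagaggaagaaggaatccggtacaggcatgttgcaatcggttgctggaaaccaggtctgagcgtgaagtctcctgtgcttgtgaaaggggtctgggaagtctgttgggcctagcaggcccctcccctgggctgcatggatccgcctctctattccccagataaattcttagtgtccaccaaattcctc
Foxc1: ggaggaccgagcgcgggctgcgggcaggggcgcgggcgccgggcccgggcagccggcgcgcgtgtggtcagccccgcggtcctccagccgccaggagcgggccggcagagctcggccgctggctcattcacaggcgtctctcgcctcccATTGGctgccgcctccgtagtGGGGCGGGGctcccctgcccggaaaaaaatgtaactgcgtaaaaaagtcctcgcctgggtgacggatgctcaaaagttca
Foxd1: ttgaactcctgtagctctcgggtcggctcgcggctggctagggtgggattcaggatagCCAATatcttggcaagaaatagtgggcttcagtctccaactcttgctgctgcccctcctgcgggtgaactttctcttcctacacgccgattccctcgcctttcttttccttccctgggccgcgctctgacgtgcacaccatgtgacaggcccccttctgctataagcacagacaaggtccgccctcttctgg
The Foxc1 stretch was the richest in G and C among the 4, at 70.8% with 29 CpG pairs, and the Tcf21 stretch was at 52.4% with 5 CpG pairs, the same share as the median of 32851 promoter stretches (52.4%). A CCAAT box stood at base 15 and base 167 of Lmx1b, base 150 of Foxc1 and base 59 of Foxd1, and 33.8% of all stretches hold one. The GC box stood once, at base 171 of Foxc1, and 10.4% of all stretches hold it. None of the 4 stretches held GCGGGGGCG (2.57% of all, a sequence that Wt1 and Egr1 can bind), the forkhead sequence TGTTTAC (3.17%), the homeodomain sequence TAATTA (4.84%) or the E-box CAGCTG (13%), on either strand. GGGGCGGGG and GCGGGGGCG can overlap in part. A match or its lack in these windows is a description of letters and says nothing of binding.

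The genes lie on 4 chromosomes (GENCODE M21, GRCm38). Wt1 spans chr2:105126529-105173616 (plus strand), Lmx1b chr2:33560965-33640511 (minus), Tcf21 chr10:22817281-22820174 (minus), Foxc1 chr13:31806633-31812476 (plus), Foxc2 chr8:121116171-121118895 (plus) and Foxd1 chr13:98354242-98359305 (plus). Tcf21 overlaps the antisense gene Gm10824, Lmx1b overlaps Gm38011 on the other strand, and Foxc2 lies within the span of Gm20388 on the same strand. Only Gm10824 was itself counted, with 233 UMIs in podocyte-like cells against 96987 for Tcf21 (0.240%). Whether the counting used strand is not given in the sources used here.

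Among the 11 named classes, podocyte-like cells had the highest level of Wt1, Lmx1b, Tcf21, Foxc2 and Foxd1, and for Foxc1 their interval overlapped that of mesangial and smooth muscle-like cells. Wt1 stood at 1122 CPM there (1117 to 1127), and at least 1 Wt1 UMI was seen in 99.6% of the cells (99.5 to 99.7). The shares of podocyte-like cells with a UMI of the other factors were 95.7% for Tcf21, 89.7% for Lmx1b, 85.0% for Foxc1, 80.2% for Foxd1 and 78.5% for Foxc2. When each cell was thinned to 2400 UMIs (17402 cells deep enough), the median podocyte-like cell still showed UMIs of 3 of the 6 factors, and 0.328% of the cells showed none. Podocyte-like cells with and without a Wt1 UMI left after thinning showed the other factors at like shares. At full depth 99.6% had a Wt1 UMI, so most cells called Wt1-negative here lost theirs in the draw. The split therefore cannot tell whether podocyte-like cells that lack Wt1 keep the other factors. After thinning, Lmx1b was seen in 52.0% of the 15694 Wt1-positive and 49.8% of the 1708 Wt1-negative podocyte-like cells, Tcf21 in 70.1% and 67.9%, and Foxc2 in 39.9% and 38.4%.

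**Figure D1:**
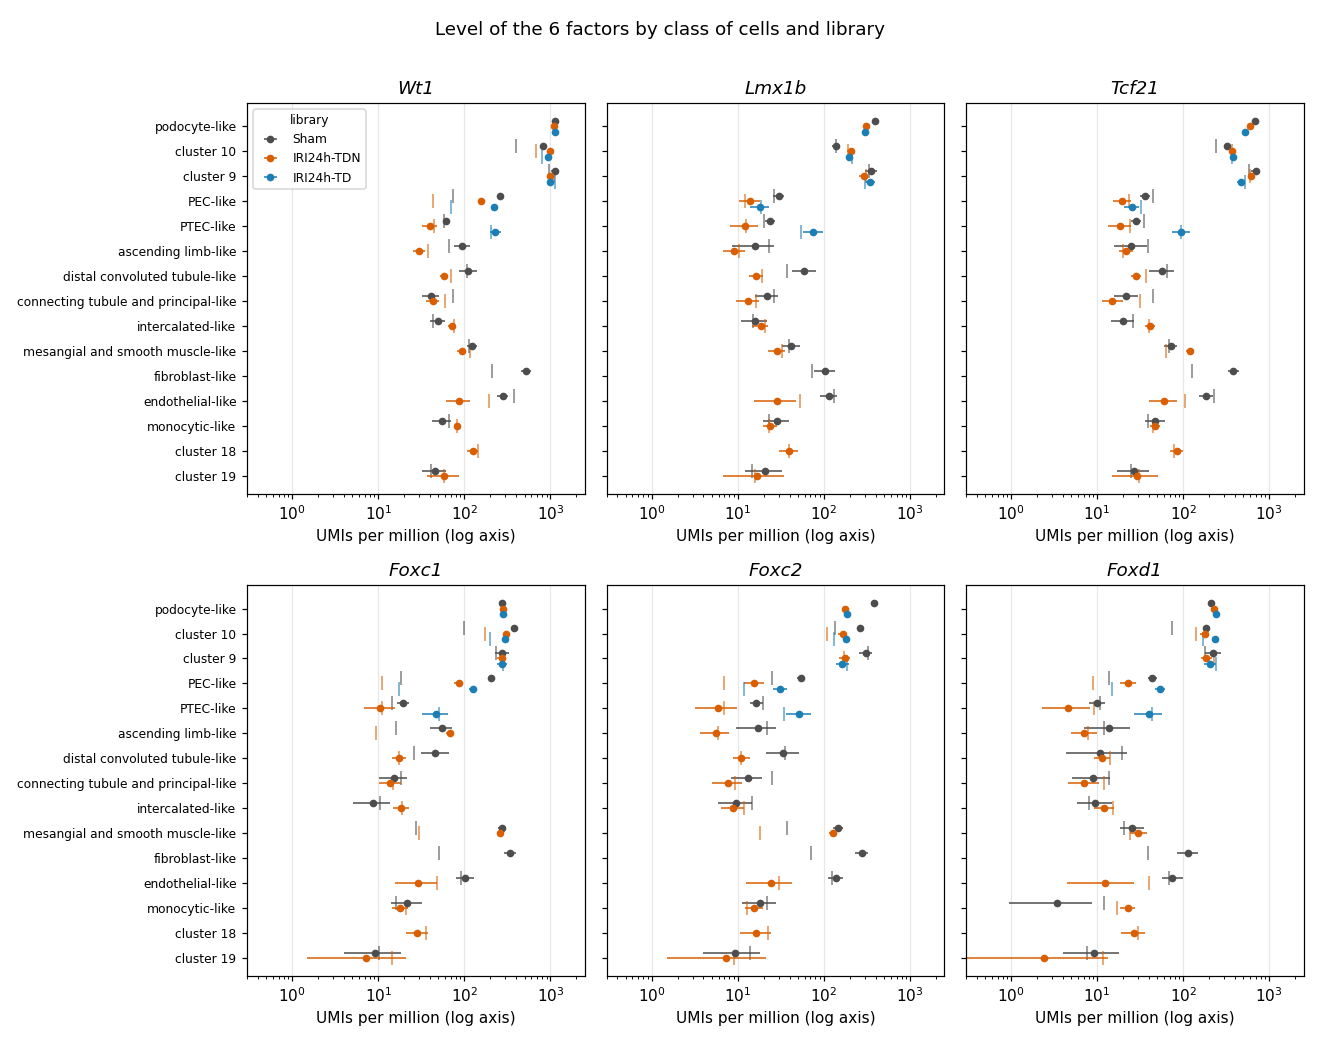
Level of each factor in CPM (log axis) by class of cells, with 1 point per library that held at least 50 cells of the class, horizontal bars for the 95% Poisson interval (drawn from 0.3 upward), and vertical ticks for the level that the podocyte-marker UMIs of those cells would carry at the ratio seen in podocyte-like cells of the same library. Points on their tick, as for Wt1 in PTEC-like cells, differ from points far to the right of it, as for Foxc1 in PEC-like and mesangial and smooth muscle-like cells.

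Which class came next differed from factor to factor. For Lmx1b no named class was near the podocyte-like level of 324 CPM, and the next, endothelial-like cells, stood at 79.9 (64.8 to 97.5). For Tcf21 the fibroblast-like cells followed, at 413 (377 to 451) against 577 (573 to 581). Foxc1 was spread most widely, with 277 (275 to 280.0) in podocyte-like cells, 263 (248 to 279) in mesangial and smooth muscle-like cells, 238 (211 to 267) in fibroblast-like cells and 149.5 (143 to 156) in PEC-like cells. The Foxc1 intervals of the podocyte-like and mesangial and smooth muscle-like cells overlapped, so their order cannot be read, and unnamed cluster 10 stood above both at 326 (314 to 339). Foxc2 followed its paralog only in part, at 226 in podocyte-like, 186 (162 to 212) in fibroblast-like, 134 (123 to 145) in mesangial and smooth muscle-like and 37.7 (34.5 to 41.1) in PEC-like cells. Foxd1 stood at 229 in podocyte-like cells, 105 (87.2 to 125) in fibroblast-like cells and 40.8 (37.5 to 44.4) in PEC-like cells.

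RNA of podocyte markers was found in every class, so the 6 factors are read beside it. The 12 podocyte markers together took 47039 CPM in podocyte-like cells, and still 2836 in PEC-like, 2879 in PTEC-like, 3248 in monocytic-like and 4834 in mesangial and smooth muscle-like cells. They took more in fibroblast-like cells (6377) and endothelial-like cells (13845). Each factor was therefore set against the podocyte-marker UMIs of the same cells, and that ratio was divided by the ratio in podocyte-like cells. On this scale 1 is the level that podocyte RNA in those cells would carry, if all marker UMIs came from podocyte RNA. Monocytic-like cells, which should lack all 6 factors, lay between 0.963 (Foxc1) and 1.18 (Foxd1) on this scale. Other classes went further below 1, such as connecting tubule and principal-like cells at 0.542 (0.446 to 0.653) for Tcf21 and 0.655 (0.578 to 0.740) for Wt1. The scale is therefore approximate, beyond what the counting intervals cover. Whether some marker UMIs were the cells' own was not tested. In mesangial and smooth muscle-like cells Nphs1 stood at 240 CPM and Synpo at 406, where podocyte-like cells had 2573 and 2298. Lmx1b had no named class whose interval lay above 1.5, with 0.839 to 1.5 over the 10 other named classes. The endothelial-like cells, next after podocyte-like cells in Lmx1b CPM, were at 0.839 (0.680 to 1.02). Wt1 had PEC-like cells at 3.26 (3.15 to 3.38) and fibroblast-like cells at 2.08 (1.88 to 2.31), and 0.619 to 0.998 in the other 8. Tcf21 had fibroblast-like cells at 5.28 (4.82 to 5.77) and mesangial and smooth muscle-like cells at 1.69 (1.54 to 1.86), but the latter were at 1.06 (0.873 to 1.27) in Sham and 1.93 (1.72 to 2.15) in IRI24h-TDN. Foxc1 had 4 such classes, with 9.24 in mesangial and smooth muscle-like, 8.94 in PEC-like, 6.53 in ascending limb-like and 6.32 in fibroblast-like cells. Over the alternatives the first 3 ranged from 9.02 to 36.3, 5.07 to 16.6 and 3.26 to 21.1, so the order of these classes is not read. Foxc2 had mesangial and smooth muscle-like (5.78), fibroblast-like (6.08) and PEC-like cells (2.77), and Foxd1 had fibroblast-like (3.37) and PEC-like cells (2.95). These values join libraries that differ in the podocyte-like Foxc2 level. Against the podocyte-like cells of Sham alone, Foxc2 was at 3.85 (3.37 to 4.38) in mesangial and smooth muscle-like, 3.96 (3.31 to 4.70) in fibroblast-like and 2.18 (1.95 to 2.43) in PEC-like cells of Sham. Without PEC-like subclusters 6 and 7, described below, the PEC-like ratios were 5.46 for Wt1, 16.6 for Foxc1, 1.32 for Lmx1b and 0.641 for Tcf21, since the 56 cells of subcluster 6 carry much of the podocyte-marker RNA of the class. The fibroblast-like class held 165 cells (89, 41 and 35 in Sham, IRI24h-TDN and IRI24h-TD), and its ratios in these libraries were 2.47, 1.02 and 2.19 for Wt1 and 3.02, 18.3 and 2.65 for Tcf21, so that a Wt1 value above 1 did not hold in IRI24h-TDN.

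**Figure D2:**
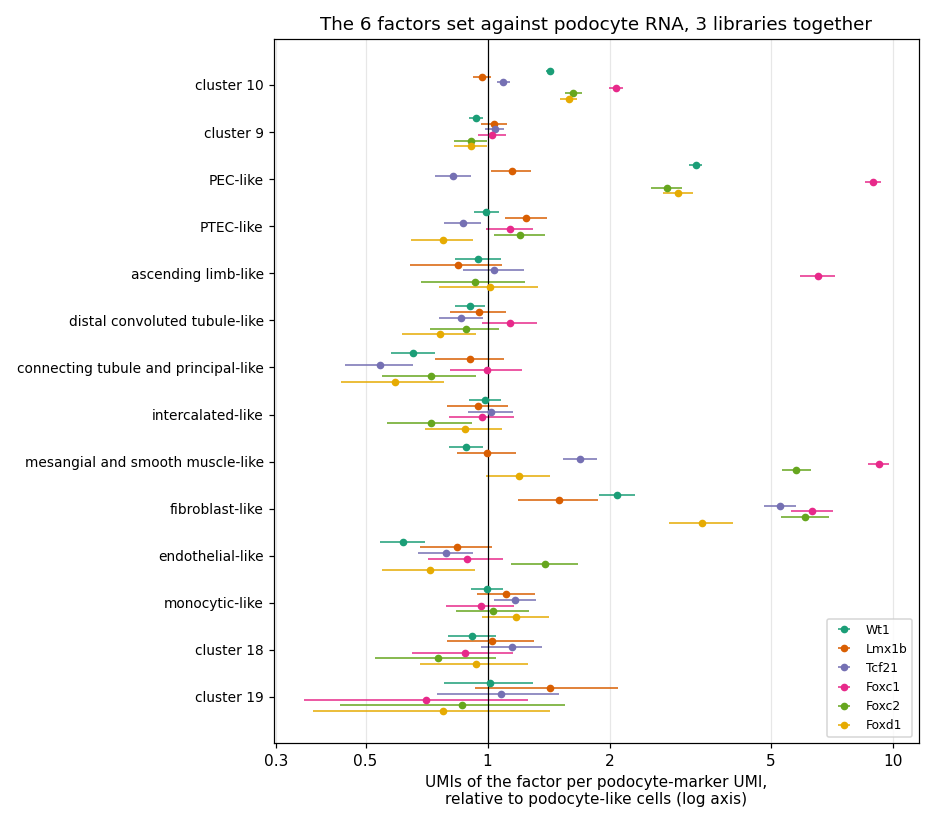
UMIs of each factor per UMI of the 12 podocyte markers, divided by the same ratio in podocyte-like cells, over the 3 libraries together (log axis, points with 95% exact intervals, line at 1). Monocytic-like and PTEC-like cells lie near 1 for all 6 factors, and Foxc1 lies between 6.32 and 9.24 in 4 classes.

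In the podocyte-like cells, 1 of the 6 factors differed between injured and sham kidney by at least 1.5-fold, and it was Foxc2. Foxc2 is a forkhead factor needed for podocyte foot processes. It stood at 380.4 CPM in Sham (374 to 387), 174 in IRI24h-TDN (171 to 178) and 187 in IRI24h-TD (185 to 190.4), which is 0.458 times Sham (0.446 to 0.471) and 0.493 times Sham (0.482 to 0.504). Both libraries taken after IRI were low and Sham was high, with no overlap of intervals. Of the 11918 genes with enough UMIs in the first comparison, 13.8% were lower by as much, and 14.4% of 12171 in the second, so 1 of 6 is close to that background. Foxc2 lay at the 5.81 and 7.65 percentile of all log2 fold changes. After thinning to 2400 UMIs, Foxc2 was seen in 56.9% of the Sham, 32.3% of the IRI24h-TDN and 35.4% of the IRI24h-TD podocyte-like cells.

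The lower Foxc2 level was found in each kind of podocyte-like cell. In the 6 podocyte-like clusters with at least 50 cells per library, Foxc2 was between 0.391 and 0.518 times Sham in IRI24h-TDN and between 0.424 and 0.580 times Sham in IRI24h-TD. Sham clusters ranged from 349 to 411 CPM and clusters after IRI from 143 to 238. A seventh cluster, 252 of whose 267 cells came from Sham, was led by interferon-response genes, and leaving it out left Foxc2 as the 1 factor past the fold in both comparisons. The podocyte markers together were also lower after IRI in these cells, with 52244 CPM in Sham against 44768 (IRI24h-TDN) and 46076 (IRI24h-TD).

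Foxc1, the paralog, stood at 277 (271 to 282), 278 (274 to 283) and 277 (274 to 281) CPM in podocyte-like cells in Sham, IRI24h-TDN and IRI24h-TD. These levels lay within each other's intervals. Wt1 was at 1130 (1119 to 1141), 1112 (1102 to 1121) and 1124 (1117 to 1132), a log2 fold change of -0.02 and -0.01 against Sham. Over the podocyte-like clusters Wt1 lay between 0.925 and 1.04 times Sham in either comparison. Lmx1b was lower after IRI, at 395 (389 to 402), 307 (303 to 312) and 301 (298 to 305), or 0.777 and 0.762 times Sham, and it was below Sham in 6 of 6 clusters in both comparisons. Tcf21 went 682 (674 to 691), 595 (588 to 602) and 519.6 (515 to 525), or 0.873 and 0.762 times Sham, and was also below Sham in 6 of 6 clusters. Tcf21 was the factor that differed most between the injured libraries, with IRI24h-TD at 0.873 times IRI24h-TDN (0.860 to 0.886). Foxd1 was higher after IRI, at 209.7 (205 to 214), 228 (224 to 233) and 238 (235 to 242), or 1.09 and 1.14 times Sham. Over the 6 clusters it lay between 1.01 and 1.32 times Sham in IRI24h-TDN and between 1.05 and 1.32 in IRI24h-TD. The lowest of these are nearly level with Sham. The clusters share the 1 library of each group, so counts over clusters are no repeats. Between IRI24h-TD and IRI24h-TDN, 0 of 6 factors were past 1.5-fold in podocyte-like cells, where 3.21% of 12042 genes were. The comparisons with Sham share the Sham library, so the second is no repeat of the first.

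**Figure D3:**
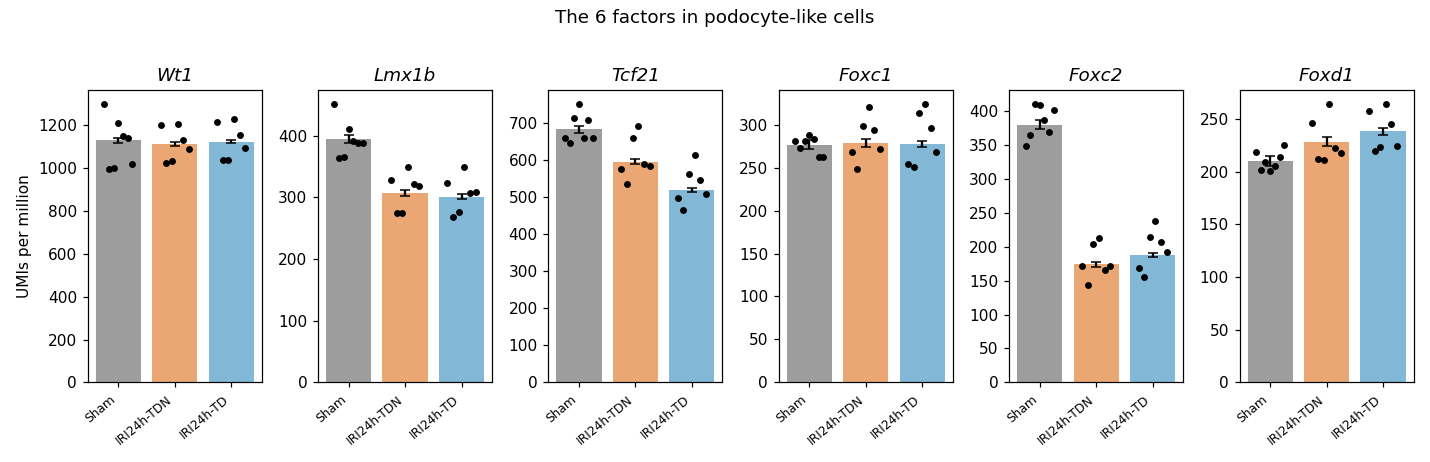
Level of each factor in podocyte-like cells (CPM, linear axes from 0) in Sham, IRI24h-TDN and IRI24h-TD, as bars over all cells with 95% Poisson intervals and black points for each podocyte-like cluster of at least 50 cells. Foxc2 falls into a high Sham bar at 380.4 and low bars at 174 and 187, and Wt1 and Foxc1 stay level.

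Other regulators of the podocyte moved in both directions in the same cells. Of 16 listed regulators, 15 had enough UMIs, and 3 were higher and 4 lower by at least 1.5-fold in IRI24h-TDN against Sham (10.2% and 13.8% of all genes), with a median log2 fold change of -0.16 where the median of all genes was -0.04. Higher were Klf6 and Klf15, zinc finger factors that protect podocytes under stress, at log2 fold changes of 1.07 and 1.47, and Hes1, a repressor driven by Notch signalling, at 1.06. Among the lower were Pax2, Sox9 and Hey1, each below 2 CPM in every library. Foxd2, another forkhead gene, stood at 187, 125 and 130 CPM, or 0.67 and 0.695 times Sham, short of 1.5-fold in both comparisons. In IRI24h-TD against Sham the counts were also 3 higher and 4 lower (10.5% and 14.4% of all genes), but not of all the same genes. Hey1, at 0.775 times Sham, was not past the fold there, and Pax8, at 0.621, was. Of 8 partners of the factors, such as Ldb1, which binds Lmx1b, and Tcf12, an E protein that pairs with Tcf21, 7 had enough UMIs in IRI24h-TDN against Sham. Of them 0 were past 1.5-fold in either direction, where 24.0% of all genes were. Of 12 podocyte genes known as targets of Wt1 or Lmx1b, 0 were higher and 3 lower in IRI24h-TDN against Sham (10.2% and 13.8% of all genes). In IRI24h-TD against Sham 0 were higher and 2 lower (10.5% and 14.4% of all genes). Among the 3 lower in IRI24h-TDN were Nphs1 (nephrin), from 3642 to 2241 CPM, and Synpo (synaptopodin), from 3056 to 2018. Synpo was at 0.697 times Sham in IRI24h-TD and not past the fold there. Podxl, a Wt1 target that codes for podocalyxin, stood at 9317, 9060 and 9462, and Plce1 at 593, 586 and 603.

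In PEC-like cells, Wt1 stood at 221 CPM (213 to 229), and 67.5% of the 1175 cells had a Wt1 UMI (64.7 to 70.2) at a median depth of 10271 UMIs. In monocytic-like cells the share was 10.9% (8.98 to 13) at a median depth of 5180. Thinned to 2400 UMIs, the shares were 35.2% in 1044 PEC-like cells and 6.96% in 948 monocytic-like cells. Foxc1 came with it, at 149.5 CPM and 57.4% of the PEC-like cells, against 5.64% of the monocytic-like cells. Lmx1b and Tcf21 stood at 22.4 and 28.6 CPM in PEC-like cells, which is 1.15 (1.02 to 1.28) and 0.823 (0.743 to 0.910) times the level carried by podocyte RNA. The PEC-like cells thus had Wt1 and the forkhead factors above that level, and Lmx1b and Tcf21 near it. After thinning, Foxc1 was seen in 30.5% of 367 Wt1-positive and 26.0% of 677 Wt1-negative PEC-like cells, and the median PEC-like cell showed 1 of the 6 factors. These Wt1-negative cells include many that lost their Wt1 UMIs in thinning, as the shares of 67.5% and 35.2% show.

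The PEC-like cells fell into 8 subclusters, numbered from 0, and the largest, 0 and 1, differed in their forkhead factors more than in Wt1. In subcluster 1 (260 cells, led by Col6a1, Cdh11 and Bgn, and with the highest PEC marker level, 13135 CPM), Wt1 stood at 252 (234 to 272), Foxc1 at 316 (295 to 338), Foxc2 at 113 (100.3 to 126) and Foxd1 at 132 (119 to 147). In subcluster 0 (293 cells, led by Sfrp5 and Rgs4), Wt1 was at 218 (203 to 235) and Foxc1 at 114 (103 to 126), but Foxc2 was at 8.25 (5.49 to 11.9) and Foxd1 at 2.36 (1.02 to 4.65). Subcluster 3 (170 cells), with PTEC markers at 10467 CPM, had Wt1 at 160.1 (145 to 176), Foxc1 at 58.7 (50 to 68.5) and Foxd1 at 2.90 (1.25 to 5.71). Subcluster 7 (24 cells) had Foxc1 at 233 (175 to 304) and 2 Wt1 UMIs, or a level of 8.63 CPM (1.05 to 31.2). Subcluster 1 thus held 304 of the 511 Foxc2 UMIs and 357 of the 553 Foxd1 UMIs of the PEC-like cells, and podocyte markers differed little between subclusters 0 and 1, at 1316 and 1794 CPM. Per 1000 podocyte-marker UMIs, subclusters 1, 0 and 3 had 73.7, 1.79 and 2.10 UMIs of Foxd1, and 62.8, 6.27 and 3.41 of Foxc2. In subclusters 0 and 3 Foxd1 thus lay below the podocyte-like ratio and Foxc2 near it. Subcluster 6 (56 cells) had podocyte markers at 21426 CPM, Wt1 at 626 CPM, and 242 of the 388 Tcf21 and 135 of the 303 Lmx1b UMIs of the PEC-like cells.

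**Figure D4:**
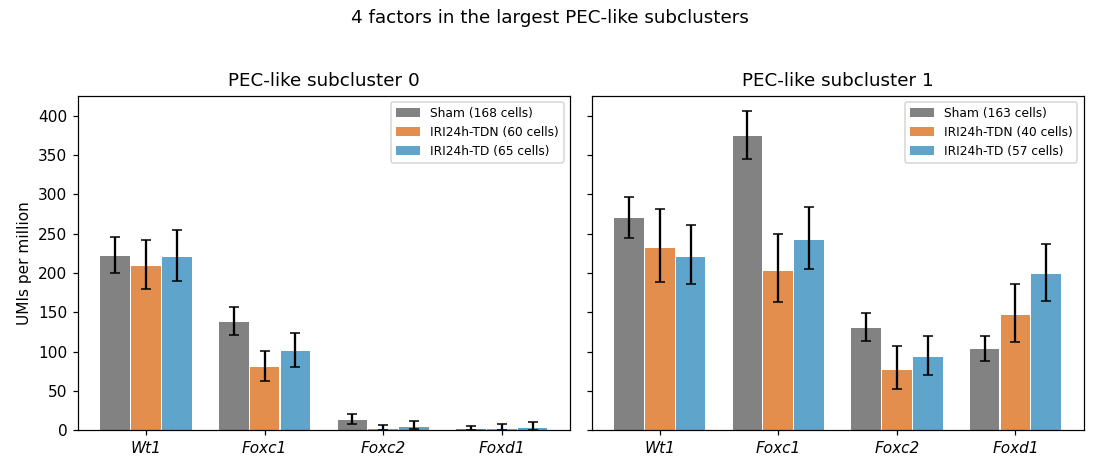
Level of 4 factors (CPM, bars with 95% Poisson intervals) in the largest PEC-like subclusters in the 3 libraries, with the number of cells in the legend. Wt1 is at like height on both sides, Foxc2 and Foxd1 are at most 13.7 in subcluster 0, and in subcluster 1 Foxc1 is highest and Foxd1 lowest in Sham.

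The levels in PEC-like cells were lowest in IRI24h-TDN for all 6 factors. In IRI24h-TDN against Sham, 6 of 6 factors were lower by at least 1.5-fold, where 21.4% of 10852 genes were, and podocyte markers in these cells also went from 3449 to 1760 CPM, whose part in the lower levels was not tested. Wt1 stood at 261 (248 to 274) in Sham, 155 (143 to 169) in IRI24h-TDN and 219 (204 to 235) in IRI24h-TD. Foxc1 stood at 201 (190.2 to 213), 85.9 (76.7 to 95.9) and 126 (114 to 138), so that both libraries after IRI were below Sham. Foxc2 stood at 54.8, 15.6 and 31, and Foxd1 at 43.8 (38.8 to 49.4), 22.9 (18.3 to 28.3) and 54.0 (46.7 to 62.2), with Sham between the injured libraries. Over the alternatives, the Foxd1 log2 fold change of IRI24h-TD against Sham (0.30) ranged from -0.45 to 0.76, so the order of these 2 libraries is not read. In IRI24h-TD against Sham, 3 of 6 were lower by at least 1.5-fold (Lmx1b, Foxc1 and Foxc2), where 17.3% of 10797 genes were. For Lmx1b this log2 fold change of -0.73 turned to 0.23 as a mean over cells. Against IRI24h-TDN, IRI24h-TD had 2 of 6 higher, Foxc2 and Foxd1, where 6.04% of 9981 genes were. Set against podocyte RNA of the same library, Wt1 was at 3.49, 3.56 and 3.12 in Sham, IRI24h-TDN and IRI24h-TD, and Foxc1 at 11.0, 7.85 and 7.24. Foxc2 was at 2.18, 2.28 and 2.64 on this scale, Foxd1 at 3.17, 2.55 and 3.62, Lmx1b at 1.14, 1.16 and 0.955, and Tcf21 at 0.799, 0.840 and 0.775. Foxc1 was thus lower after IRI on both scales, the Foxd1 intervals of Sham and IRI24h-TDN overlapped on the second, and the lower levels of Wt1, Foxc2, Lmx1b and Tcf21 in IRI24h-TDN were not seen on the second. The second scale divides all UMIs of a factor, not only those that came with podocyte RNA. For factors well above 1, such as Wt1 and Foxc2, it therefore cannot tell whether the remaining UMIs were lower in IRI24h-TDN.

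The libraries differed by subcluster. In the largest, subclusters 0 and 1, Wt1 in IRI24h-TDN was closer to Sham than over all PEC-like cells, and Foxc1 was lower after IRI. In subcluster 0 Wt1 was at 222 (200.1 to 246), 209 (179.6 to 242) and 221 (190.4 to 255) in Sham, IRI24h-TDN and IRI24h-TD, all within each other's intervals. Foxc1 in the same cells was at 138 (121 to 157), 80.1 (62.3 to 101) and 100.5 (80.4 to 124), or 0.581 (0.437 to 0.763) and 0.728 (0.562 to 0.937) times Sham. In subcluster 1 Wt1 was 0.860 (0.687 to 1.07) and 0.819 (0.671 to 0.994) times Sham, and Foxc1 0.541 (0.429 to 0.676) and 0.645 (0.536 to 0.772) times Sham. Foxd1 went the other way there, at 103 (88.0 to 120), 146 (113 to 187) and 199 (165 to 237), or 1.42 (1.05 to 1.90) and 1.93 (1.52 to 2.44) times Sham. These subclusters held 163, 40 and 57 cells (subcluster 1) and 168, 60 and 65 cells (subcluster 0) in the 3 libraries. Subcluster 2 was led by Krt19, Krt5, Ly6d and Sprr1a, with no PEC marker among its 10 leading genes, and subcluster 3 by Ttr, Cyp2e1 and Spp2, with more PTEC than PEC marker RNA (10467 and 3272 CPM). In these cells, whose place among PEC-like cells is thus in doubt, Wt1 in IRI24h-TDN was 0.214 (0.121 to 0.370) and 0.350 (0.257 to 0.469) times Sham and Foxc1 0.181 and 0.0821 times Sham, over 68 and 33 cells of IRI24h-TDN. Podocyte markers in these cells were lower too, from 3204 to 608 CPM in subcluster 2 and from 1726 to 790 CPM in subcluster 3.

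In PTEC-like cells the 6 factors lay between 0.775 and 1.25 times the level carried by podocyte RNA over the 3 libraries, and the highest value in 1 library was 1.51 (1.08 to 2.07), for Foxc2 in IRI24h-TD. Wt1 was at 61.9 CPM in Sham (56.7 to 67.5), 39.3 in IRI24h-TDN (31.8 to 48.1) and 229 in IRI24h-TD (196 to 265), the last over 80 cells with a median depth of 3492 UMIs. Podocyte markers moved with it, at 2692, 1798 and 8377 CPM, and their part in the Wt1 levels was not tested. Relative to podocyte RNA, Wt1 was at 1.06 (0.974 to 1.16), 0.881 (0.712 to 1.08) and 1.12 (0.958 to 1.30) in the 3 libraries. The factors also came together in the same PTEC-like cells, as they did in cells of other classes. After thinning, Lmx1b was seen in 24.7% of 89 Wt1-positive PTEC-like cells and 2.90% of 1000 Wt1-negative ones, and Foxc2 in 22.5% and 0.900%. In PEC-like cells the same shares for Lmx1b were 6.81% and 1.92%. They were 12.1% and 1.36% in monocytic-like cells, and 36.4% and 1.44% in distal convoluted tubule-like cells. Unnamed cluster 19, with 4 Wt1-positive cells, went the other way (0% and 3.13%). Joint detection was thus not particular to PTEC-like cells.

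Outside the glomerular epithelium, Foxc1 and Foxc2 were found in mesangial and smooth muscle-like cells with little difference after IRI. There Foxc1 was at 273 (248 to 299) in Sham and 259 (239.9 to 279) in IRI24h-TDN, and Foxc2 at 146 (128 to 165) and 129 (115 to 143), or 0.883 times Sham (0.746 to 1.05). Tcf21 in these cells was higher after IRI, at 71.5 (59.2 to 85.7) and 121 (108 to 135), or 1.69 times Sham (1.36 to 2.11), while podocyte markers were at 5189 and 4718 CPM. Foxc1 in ascending limb-like cells was at 54.5 (40.2 to 72.3) in Sham and 68.6 (61.6 to 76.2) in IRI24h-TDN, while Wt1 in the same cells, relative to podocyte RNA, was at 1.44 (1.15 to 1.79) in Sham and 0.780 (0.660 to 0.916) in IRI24h-TDN. IRI24h-TD held 14 cells of each of these classes and is not read there.

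Over the 33 pairings of class and library with at least 50 cells, the levels of the factors varied together. Pearson's r of the log2 level (with 1 added) was highest for Lmx1b with Tcf21 (0.97) and Wt1 with Foxd1 (0.97), and lowest for Lmx1b with Foxc1 (0.75). These points share libraries, depth and podocyte RNA and are given as a description. Among 13362 other genes, those most like Lmx1b were Nphs1 (0.99), Arhgap28, Wipf3, Ddn and Synpo. Most like Wt1 were Mmp23 (0.98), Arhgap28, Hoxc8, Plekhh2 and Aplp1, and most like Tcf21 Golim4 (0.98), Wipf3, Colec12, Synpo and Cdc14a. Most like Foxd1 were Mmp23 (0.96), Hoxc8, Raver2, Pdpn and C1qtnf7. The genes most like Foxc2 were Rasl11a (0.96), C1qtnf7, Hspa12a, Foxd2 and Mxra8, and those most like Foxc1 were Pknox2 (0.95), Hoxc4, Samd4, Fat1 and Map1b, none of which was among the genes most like Lmx1b.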

How the data were processed

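The authors made the libraries on the BD Rhapsody platform and deposited, for every library, a table of raw UMI counts (barcodes by genes, not normalized). Cell annotation by the authors was not used here. Per the labels' processing notes, genome build mm10 and CASAVA 1.8, UMI-tools and Seurat were used by the submitters. The counting's use of strand and its annotation are not given in the sources used here. Total counts were 69980443 (Sham), 92355554 (IRI24h-TDN) and 93470709 (IRI24h-TD).

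From these counts, cells were scaled to 10000, 2000 variable genes were chosen without the 6 factors and the listed regulators and partners, libraries were aligned over 30 principal components by the Harmony procedure (theta 2) in numpy 2.4.6, and cells were clustered on 15 neighbours (leidenalg 0.10.2, igraph 0.11.9, resolution 1, Python 3.11.15, scipy 1.17.1, pandas 2.3.3). A cluster was named where at least 3 markers of the leading class were seen in 25% of its cells, the second class reached less than 0.6 of the first, and depth and the 10 leading genes did not go against the name. Doublets were not removed, and a score was used in an alternative. UMIs were summed by class and library. Folds were read over genes in all 3 tables (18111) with at least 50 UMIs over both libraries, with zeros set to a floor of 3 counts. Intervals are exact (Poisson, Clopper-Pearson, conditional binomial, 95%). Thinning drew 2400 UMIs per cell without replacement. The fold and clustering steps were tested on simulated data with known answers. edgeR 4.0.16 in R 4.3.3 gave TMM factors for an alternative only. Named genes were the 6 factors, the members of lists of 16 regulators, 8 partners and 12 targets, and the 5 genes most like each factor among genes with at least 200 UMIs. The members, lists and markers were chosen with earlier results of these data known. Some list members are counted but not reported here by name.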

Additional observations from a re-analysis of the deposited data

How the results depend on the processing

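No paired analysis was possible because each group has 1 library. Foxc2 was the 1 factor past 1.5-fold in podocyte-like cells, in both comparisons with Sham, under all alternatives run, also at 2-fold, and the 156 log2 fold changes recomputed there moved by at most 0.10. The 6 factors kept podocyte-like cells as their highest class, except that Foxc1 did not (5 of 6) when mitochondrial and ribosomal protein genes were left out of the total and when the mean over cells was used. The share of PEC-like cells with a Wt1 UMI was 55.8% at resolution 0.5, 74.3% at resolution 2, 70.2% with at least 500 genes, 72.7% with at most 20% mitochondrial UMIs, 72.1% without Harmony, 73.1% with 4000 variable genes, 70.2% with cells named one by one and 35.2% thinned to 2400 UMIs. The cause was not tested, except that thinning lowers the share by its construction. The log2 fold change of Lmx1b in PEC-like cells, IRI24h-TD against Sham, was -0.73 and turned to 0.23 as a mean over cells. In the same comparison Foxd1 (0.30) ranged from -0.45 to 0.76 over the alternatives, and Tcf21 (-0.51) from -1.07 to 0.27. Over all alternatives run, Foxc1 relative to podocyte RNA ranged from 5.07 to 16.6 in PEC-like and from 9.02 to 36.3 in mesangial and smooth muscle-like cells. Wt1 in PTEC-like cells ranged from 0.851 to 1.14 on this scale. Settings chosen after seeing the data were leaving out podocyte-like cluster 17 or PEC-like subclusters 6 and 7. Depth limits the reading of Lmx1b and Tcf21 in PEC-like cells, where 303 and 388 UMIs were counted in all.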
